A study of Mus musculus with 6 samples.

Results

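Among the genes of the developing humerus, 33 belong to the system by which cells detect stray DNA and RNA and answer with interferon. They comprise the cGAS-STING and RIG-I sensing genes, the type I interferon receptor and its transcription factors, and genes that interferon induces. They were taken by symbol from a table of 23420 genes, in which all 33 were present, whatever their level or change. Marrow was washed out of the humeri of 6-day-old C57BL/6 mice, and RNA of the remaining bone gave 3 Control and 3 Tfam cKO libraries. In the Tfam cKO mice Tfam was deleted through Prx1-Cre, a driver active in the limb mesenchyme that forms bone and cartilage, so blood, endothelial and other cells outside that lineage keep the gene. The labels do not say which exons were removed. They call the other group Control and do not say whether it carried Cre or floxed alleles, nor whether each library was 1 animal. The p-values therefore measure the spread between these libraries, which may be technical.

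Tfam packages mitochondrial DNA, and mitochondrial DNA that escapes into the cytosol can bind the sensor cGAS, which makes a cyclic dinucleotide that activates STING. STING recruits the kinase TBK1, which activates the transcription factor IRF3 and so the interferon genes. RNA in the cytosol takes a parallel route through RIG-I and MDA5 to the adaptor MAVS on the mitochondrial outer membrane, which also reaches TBK1. Secreted interferon then acts on its receptor, and a complex with STAT2 and IRF9 drives the interferon-stimulated genes through a promoter element, the ISRE. In mouse fibroblasts, partial loss of Tfam is known to raise interferon-stimulated genes by way of cGAS. The comparison of Tfam cKO with Control bone shows where the same genes stood when the limb mesenchyme had lost Tfam.

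Promoter windows of the members were searched for exact matches to a core of that element. Members without a window were not searched, and a window without an exact match may still hold a variant of it. Of the 33 genes, 25 matched RefSeq promoter windows (GRCm38.p6), which run from 250 bases before a gene's start to 50 after it. The ISRE core was taken as a pair of GAAA half-sites with 2 bases of any kind between them. Searched on both strands, with overlaps allowed, it was found in 12 of their 28 windows, each of a different gene, against 3.44% of all 32851 windows. It was present in 9 of 16 windows of induced members and 3 of 12 windows of signalling members. The GAS element, TTC and GAA with 3 bases of any kind between them, through which interferon gamma acts, was found in 5 of the 28 windows and 8.30% of all windows. The sites below are those of the 12 genes, on the gene's own strand with the core matches in capitals, and are shown because they are the members' matches to the element that interferon signalling acts through: 9 induced genes, then Stat2, Ddx58 and Ifih1. For Ifit3 the first of its separate matches is shown.
Isg15: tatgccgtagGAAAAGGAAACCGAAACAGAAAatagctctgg
Ifit1: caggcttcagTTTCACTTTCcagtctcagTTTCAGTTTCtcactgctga
Ifit3: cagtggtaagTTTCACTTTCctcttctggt
Oas1a: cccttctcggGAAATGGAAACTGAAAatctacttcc
Oas3: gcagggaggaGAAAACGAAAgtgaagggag
Rsad2: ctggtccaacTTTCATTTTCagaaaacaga
Bst2: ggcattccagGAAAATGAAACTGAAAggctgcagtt
Gbp2: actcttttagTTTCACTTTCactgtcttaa
Gbp3: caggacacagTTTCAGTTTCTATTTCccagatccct
Stat2: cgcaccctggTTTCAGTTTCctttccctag
Ddx58: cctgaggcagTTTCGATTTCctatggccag
Ifih1: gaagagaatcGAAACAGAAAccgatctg
The match begins 78 bases before the start in Isg15 and 20 bases before it in Oas1a, while in Ddx58 and Ifih1 it lies inside the first transcribed bases, from base 3 and base 33. Mavs, the member whose change passed the test below, had no match to the core or to GAS in its window at chr2:131233813-131234112 (GRCm38.p6, plus strand), printed here whole.
Mavs: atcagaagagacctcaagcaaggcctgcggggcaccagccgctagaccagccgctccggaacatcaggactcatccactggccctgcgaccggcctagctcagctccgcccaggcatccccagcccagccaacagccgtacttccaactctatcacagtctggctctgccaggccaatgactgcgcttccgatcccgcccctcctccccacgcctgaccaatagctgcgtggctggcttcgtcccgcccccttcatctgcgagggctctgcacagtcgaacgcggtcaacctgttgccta

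No interferon-stimulated gene among the members was called higher in Tfam cKO bone, and 1 sensing gene, Mavs, was called lower by limma and edgeR. Of the 33 members, 32 passed the filter of a mean of at least 1 normalized count. Of these, 0 were called higher by limma, edgeR or DESeq2, and 1 was lower by limma and edgeR and none by DESeq2, at an adjusted p under 0.05. Over the whole table limma called 6.42% of 14438 genes higher and 6.01% lower. At an unadjusted limma p under 0.05 there were 3 members higher (Oas1a, Ifi44 and Bst2) and 3 lower (Mavs, Tbk1 and Ifih1), where the table as a whole had 13.5% and 13.7%. The libraries of the groups did not overlap for 3 higher members (Oas1a, Ifi44 and Usp18) and 4 lower ones (Mavs, Tbk1, Tmem173 and Gbp2), against 16.6% and 15.4% of all genes. The median log2 fold change of the members was -0.16 and their mean -0.01, beside a median of 0.01 over all genes, and 19 of 32 were below 0, as were 49.3% of all genes. Omitting Control library 1 moved that median to -0.01, and omitting Tfam cKO library 2 moved it to -0.31. In bulk bone, fewer cells of a type and less RNA per cell cannot be told apart.

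How closely each gene could be read differed with its depth and with the spread of its libraries. Rsad2, on 1105 reads, and Ddx58, on 210, both had a standard error of 0.22. The libraries held 1441152 to 1714770 reads, of which the 33 genes took 911 to 1291, or 0.0632% to 0.0806%. The median member had a mean of 19.5 normalized counts, against 41.8 for all tested genes, and a standard error of 0.30 on the log2 scale against 0.21. Of genes under 20 normalized counts limma called 4.91%, and of those at 20 or more 16.1%, and 16 of the 32 members were under 20. The 95% interval of the fold change ended below a log2 value of 1, a doubling, for 22 members (78.9% of all genes), among them all 13 signalling genes, and reached it for 10 (Oas1a, Ifi44, Ifi27l2a, Rtp4, Usp18, Bst2, Isg15, Ifit3, Mx1 and Oasl1). For these 10 a doubling was inside the interval.

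**Figure D1:**
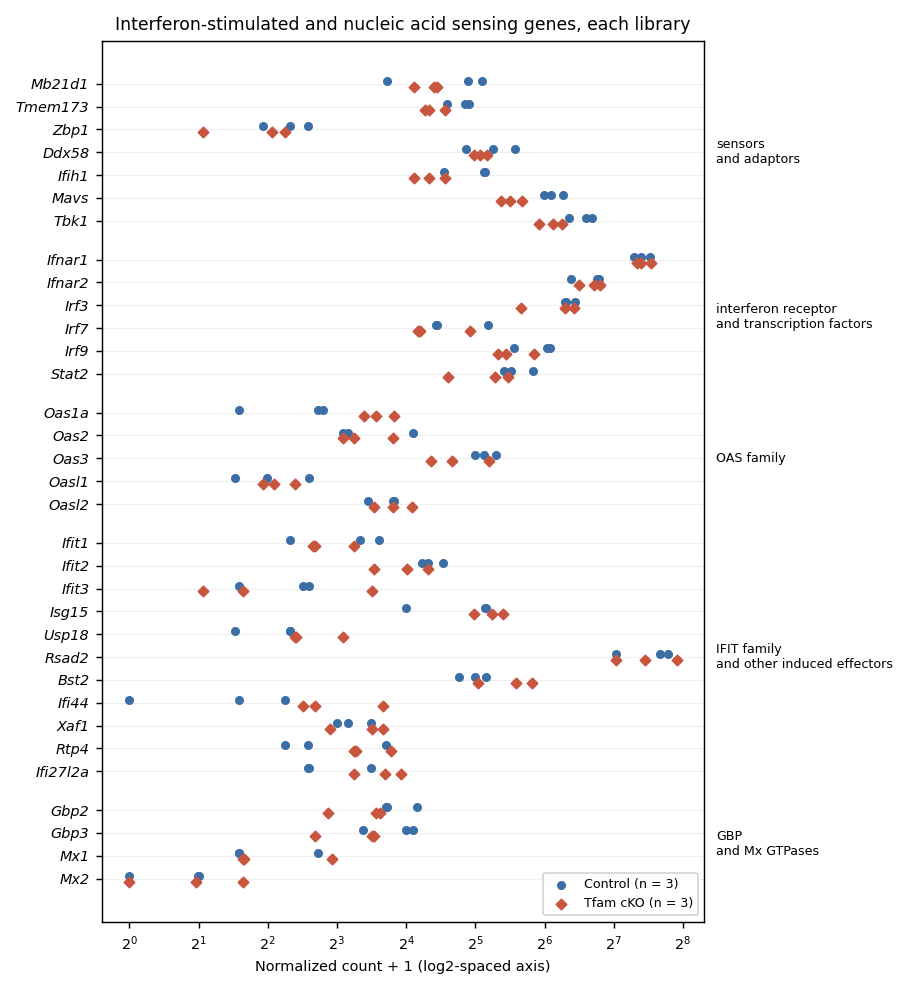
Normalized count + 1 of each of the 33 genes (rows, grouped by role) on a log2-spaced horizontal axis, with a point for each of the 3 Control and 3 Tfam cKO libraries. The groups overlap in most rows. Mavs and Tbk1 lie lower in all 3 Tfam cKO libraries, and Oas1a and Ifi44 higher, at few reads.

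Tfam itself, the targeted gene, was at 40.6 ± 10.8 normalized counts in Tfam cKO against 70.7 ± 8.75 in Control (SD, n = 3 libraries per group, as for every mean below), a ratio of 57.5%. Its log2 fold change was -0.81 ± 0.21 (SE; limma adjusted p = 0.0246), while a two-sided exact permutation of the 6 libraries cannot go below p = 0.1, which it reached. Omitting Control library 2, Control library 3 or Tfam cKO library 1 raised the adjusted p to 0.0687, 0.107 or 0.0755, and DESeq2 gave 0.0564.

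The adaptor of the RNA route was the 1 member called, of 32 tested, where limma called 6.01% of all genes lower. Mavs, on chromosome 2, had 76.3, 67.4 and 62.7 normalized counts in Control and 44.4, 49.9 and 40.2 in Tfam cKO. All 3 Tfam cKO libraries lay below all 3 Control libraries, and their mean was 65.1% of the control mean. Its log2 difference came to -0.61 ± 0.16 (SE), with a 95% interval of -0.96 to -0.25 and a limma adjusted p of 0.0286 (edgeR 0.0286, DESeq2 0.158). The authors' deposited table gave Mavs a q-value of 0.0337, where 6.62% of its 23420 genes had one under 0.05. The direction held without any 1 library. The adjusted p was 0.0289 without Tfam cKO replicate 2, and the call ended when any other library was omitted. Omitting the Control libraries 1, 2 and 3 in turn gave 0.131, 0.0655 and 0.0536, and omitting Tfam cKO libraries 1 and 3 gave 0.0714 and 0.0982.

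The kinase at which both routes meet had the second smallest p of the members but did not pass. Tbk1 had 96.4, 80.6 and 101 normalized counts in Control and 59.5, 68.7 and 75.1 in Tfam cKO. These groups did not overlap either, and the log2 fold change was -0.45 ± 0.15 (limma adjusted p = 0.0726). The RNA sensor MDA5, encoded by Ifih1, had 34.2, 22.5 and 33.8 against 16.2, 22.6 and 19.0 (-0.61 ± 0.26, adjusted p = 0.146). Control replicate 2 was as low as Tfam cKO replicate 2 for this gene, so the groups touched. The RNA sensor RIG-I, encoded by Ddx58, had 37.2, 28.1 and 46.8 against 32.5, 34.8 and 30.7 (-0.16 ± 0.22, adjusted p = 0.689), with Control libraries on both sides of the Tfam cKO ones.

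The genes of the DNA route gave no call. Mb21d1, which encodes cGAS, had 33.1, 12.2 and 28.8 normalized counts in Control and 16.2, 20.7 and 20.1 in Tfam cKO (log2 fold change -0.26 ± 0.34, adjusted p = 0.679). The spread of its Control libraries, with replicate 2 the lowest of all 6, was wider than the difference between groups. Tmem173, which encodes STING, had 23.1, 29.0 and 27.9 against 18.4, 22.6 and 19.0 (-0.40 ± 0.23, adjusted p = 0.303). Its groups were apart by less than 1 read. Zbp1, which binds left-handed nucleic acid, had 4.02, 2.81 and 4.97 in Control and 1.08, 3.77 and 3.17 in Tfam cKO (-0.49 ± 0.50, adjusted p = 0.577), on 12 and 8 reads. Its groups overlapped. All 7 sensors and adaptors had a log2 fold change below 0 (median -0.45), but those of Mb21d1 and Ddx58 turned to 0.01 without Control replicate 1 and without Control replicate 3. Their 7 counts summed to 243 to 306 in Control libraries and 188 to 223 in Tfam cKO libraries. A large part of these sums was Mavs and Tbk1. The mean sum was 284 in Control and 206 in Tfam cKO, of which Mavs held 68.8 and 44.8, and Tbk1 92.8 and 67.8. The groups overlapped for Mb21d1, Zbp1, Ddx58 and Ifih1, so the sums do not show a fall of every gene.

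The chains of the interferon receptor differed between groups by less than the spread of their libraries. Ifnar1, the receptor's first chain, was at 169 ± 14.4 in Control and 171 ± 12.0 in Tfam cKO (log2 fold change 0.02, 95% interval -0.23 to 0.27, adjusted p = 0.936). Ifnar2, the second chain, was at 99.6 ± 14.8 and 101 ± 10.3 (0.03, 95% interval -0.29 to 0.35, adjusted p = 0.927). Both genes are well counted, and their intervals are among the narrower of the members.

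None of the transcription factors passed. Irf3, activated by TBK1, had 77.3, 78.7 and 85.5 in Control and 49.8, 77.2 and 84.6 in Tfam cKO (-0.22 ± 0.19, adjusted p = 0.487). Tfam cKO replicate 1 was the lowest of all 6, replicate 2 was just below the lowest Control library, and replicate 3 fell within the Control range. Irf7, itself induced by interferon, had 35.2, 20.6 and 20.9 against 17.3, 29.2 and 16.9 (-0.26 ± 0.30, adjusted p = 0.624). In each group 1 library stood above its other 2, and the groups overlapped. Stat2 had 56.2, 45.0 and 41.8 against 37.9, 43.3 and 23.3 (-0.48 ± 0.24, adjusted p = 0.220), and its partner Irf9 had 66.3, 45.9 and 64.7 against 39.0, 56.5 and 42.3 (-0.35 ± 0.20, adjusted p = 0.285). For both, Tfam cKO replicate 2 lay among the Control values. Of the 6 receptor and transcription factor genes, 4 were below 0 (median -0.24), and Irf3 turned to 0.01 without Tfam cKO replicate 1.

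**Figure D2:**
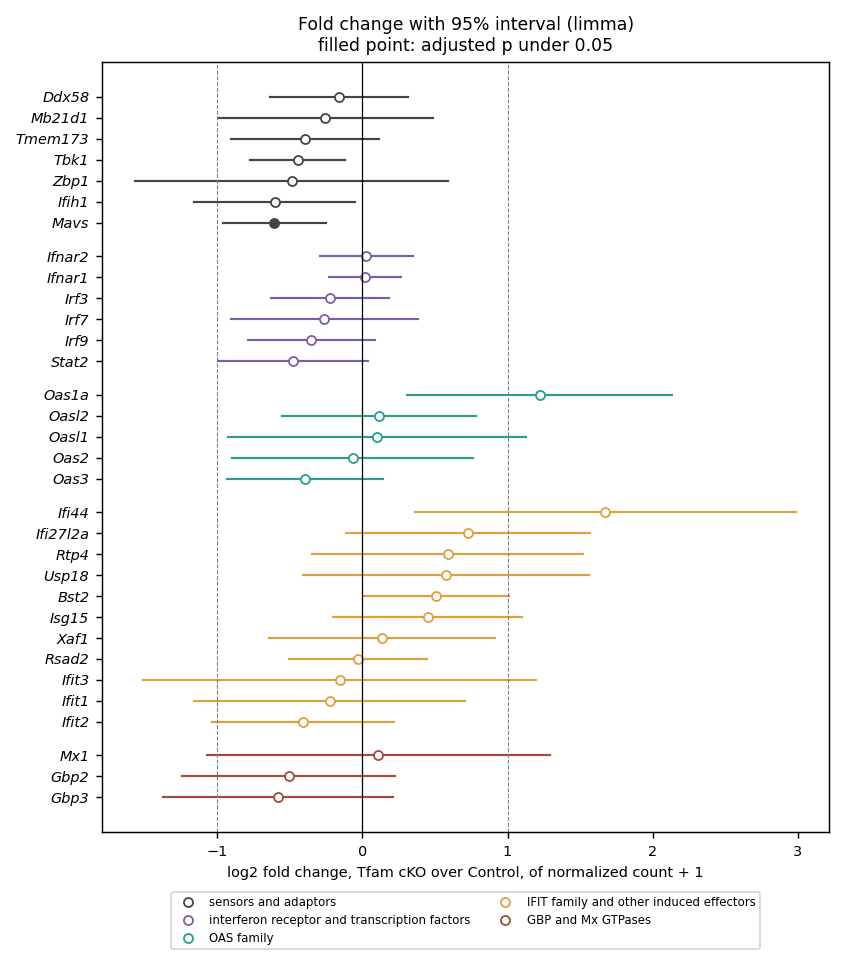
The log2 fold change (Tfam cKO over Control, horizontal axis) of the 32 tested genes with its 95% interval from limma, coloured by role, with dashed lines at 1 and -1. The single filled point, Mavs at -0.61, is the gene with an adjusted p under 0.05.

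The genes that interferon induces did not move as a block. Of 19 tested, 11 had a fold change above 0 and 8 below, with a median of 0.11. Without Rsad2, which holds a large part of their reads, the 19 genes summed to 190 to 230 normalized counts in Control and 207 to 276 in Tfam cKO libraries. Isg15, a ubiquitin-like protein attached to other proteins after interferon, had 34.2, 34.7 and 14.9 in Control and 36.8, 41.4 and 30.7 in Tfam cKO (0.45 ± 0.30, adjusted p = 0.366). Control replicate 3 alone was low, and the difference was 0.06 without it. Usp18, the protease that removes Isg15, had 10 reads in Control and 16 in Tfam cKO (adjusted p = 0.453).

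The IFIT proteins bind viral RNA ends and are among the most inducible interferon targets. Ifit1 had 9.04, 11.2 and 3.98 in Control and 5.41, 8.47 and 5.29 in Tfam cKO (-0.23 ± 0.43, adjusted p = 0.784). Ifit3 had 5.02, 4.68 and 1.99 against 1.08, 10.4 and 2.12 (-0.16 ± 0.62, adjusted p = 0.901), and its sign was positive with edgeR (0.27) and DESeq2 (0.23). Tfam cKO replicate 2 held 11 of the 14 Ifit3 reads of its group. Ifit2 was at 19.6 ± 2.23 against 14.9 ± 4.13 (adjusted p = 0.399). Of the 50-base stretches in Ifit3 transcripts (GENCODE M21), 51.2% also occur in Ifit3b, and 7.06% of those in Ifit1 occur in Ifit1bl2, so reads may be split between copies.

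The OAS enzymes sense double-stranded RNA and make oligoadenylates. Oas1a had 2.01, 5.62 and 5.97 normalized counts in Control and 10.8, 13.2 and 9.52 in Tfam cKO, a log2 fold change of 1.22 ± 0.42 (95% interval 0.31 to 2.14). All 3 Tfam cKO libraries were above all 3 Control libraries, on 14 and 33 reads, but the adjusted p was 0.0784 (edgeR 0.0873, DESeq2 0.338). Oas1a shares 57.6% of its 50-base stretches with Oas1g, which had 3 reads over all 6 libraries. The larger family members showed no such difference, with Oas3 at 34.3 ± 3.65 against 26.5 ± 8.37 (-0.40, adjusted p = 0.328) and Oas2 at 10.5 ± 4.82 against 9.66 ± 2.92 (-0.07, adjusted p = 0.932). The OAS-like genes Oasl1 (0.10, adjusted p = 0.918) and Oasl2 (0.11, adjusted p = 0.852) were near 0.

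Ifi44, an interferon-induced gene, had the highest fold change of the members and few reads. It had 0, 3.75 and 1.99 normalized counts in Control and 5.41, 4.71 and 11.6 in Tfam cKO (1.68 ± 0.61, adjusted p = 0.0927), or 6 reads against 21. The groups did not overlap, and Tfam cKO replicate 3 was the highest. Bst2, or tetherin, which holds budding virus at the cell surface, had 26.1, 34.7 and 30.8 against 55.2, 47.1 and 31.7 (0.51 ± 0.23, adjusted p = 0.179). Tfam cKO replicate 3 fell within the Control range. Ifi27l2a had 5.02, 10.3 and 4.97 against 11.9, 14.1 and 8.46 (0.73 ± 0.39, adjusted p = 0.250), with Control replicate 2 inside the Tfam cKO range. After removal of the trend with exon length in each library, the differences of the members with the shortest exons became 0.57 for Ifi27l2a, 0.40 for Bst2 and 0.34 for Isg15. The chaperone gene Rtp4 (0.59, adjusted p = 0.418) and the apoptosis factor Xaf1 (0.13, adjusted p = 0.851) did not pass.

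Per kilobase of exon, Bst2 had the highest level of the members (49.1 normalized counts per kilobase over the 6 libraries), followed by Rsad2 (48.3) and Isg15 (42.5). Rsad2, or viperin, an antiviral enzyme that modifies a nucleotide, stood far above the Ifit genes, of which Ifit2 had 4.36, Ifit1 2.74 and Ifit3 2.11. Rsad2 had 220, 202 and 130 normalized counts in Control and 174, 240 and 130 in Tfam cKO (-0.03 ± 0.22, 95% interval -0.51 to 0.44, adjusted p = 0.948). Its libraries spread over the same range in both groups.

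Among the GTPases, which attack pathogens inside the cell, Gbp2 was at 13.7 ± 2.77 in Control and 9.49 ± 2.73 in Tfam cKO (-0.51, adjusted p = 0.364), and Gbp3 at 13.5 ± 3.58 and 8.78 ± 2.92 (-0.58, adjusted p = 0.335). The Mx genes were near the limit of detection. Mx1 had 10 reads in Control and 11 in Tfam cKO (0.11, adjusted p = 0.922). Mx2, with the lowest level per kilobase and below the filter, had 1, 0 and 1 reads against 0, 1 and 2.

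The libraries differed in how their members ranked. Tfam cKO replicate 2 held the highest of its group's values for 21 of the 32 genes and the lowest of all 6 for 0, while Tfam cKO replicate 1 held the lowest of all 6 for 10. In the Control group, replicate 1 held the highest of all 6 for 11 genes. Over all tested genes, the shares among all 6 libraries were 12.5% lowest in Tfam cKO replicate 2, 19.9% lowest in Tfam cKO replicate 1 and 20.9% highest in Control replicate 1. The share of all genes highest within their group was not computed, so the count of 21 has no such comparison.

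The interferon genes themselves were listed with almost no reads. Of 11 ligand genes listed, 10 had 0 reads in all 6 libraries, among them Ifnb1, Ifna4 and Ifng, and Ifne had 2 reads, both in Control. An exact 0 in this table need not mean a low level: the paired globin genes Hba-a1 and Hba-a2 were also at 0 in every library, beside 18353 reads of the erythroid gene Slc4a1. Both globin genes are listed over nearly the same span of chromosome 11. The closely related Ifna genes are listed at separate positions on chromosome 4, and their zeros are given as listed. The cause of either set of zeros was not tested. Of 17 other receptor, kinase and feedback genes, 0 were called by limma in either direction, with a median of -0.07. Of all tested genes 6.42% were called higher and 6.01% lower. At an unadjusted limma p under 0.05, 1 of the 17 was higher and 1 lower, against 13.5% and 13.7% of all genes. Ifngr2, a chain of the interferon gamma receptor (0.32, adjusted p = 0.167), Irf2, a repressor of interferon targets (-0.31, adjusted p = 0.178), and Irf8, a factor of myeloid and lymphoid cells (-0.50, adjusted p = 0.186), had the smallest p-values. Without Tfam cKO replicate 2, Irf8 passed (-0.83, adjusted p = 0.00994).

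Of 29 other nucleic acid sensing genes, 1 was higher and 1 lower, with 25 below 0 and a median of -0.16. Over all tested genes the shares called by limma were 6.42% and 6.01%, and 49.3% were below 0. Samhd1, which breaks down deoxynucleotides, was higher (249 ± 12.7 to 331 ± 48.0, log2 fold change 0.40, adjusted p = 0.0465), with the call remaining without Tfam cKO replicate 1 and ending without any other 1 library, at adjusted p from 0.0949 to 0.152, after quantile normalization (0.0576) and with DESeq2 (0.0687). Tlr9, the endosomal DNA receptor, had 17.1, 9.37 and 11.9 against 1.08, 10.4 and 3.17 (-1.54 ± 0.55, adjusted p = 0.0883), and passed without Tfam cKO replicate 2 (-2.19, adjusted p = 0.0140). Trex1, the nuclease that clears cytosolic DNA, was at 14.0 ± 1.07 and 19.3 ± 6.40 (0.39, adjusted p = 0.435).

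Of 57 other interferon-stimulated genes tested, 4 were higher and 4 lower, with 43 below 0 and a median of -0.31. Of all tested genes limma called 6.42% higher and 6.01% lower, and 49.3% were below 0. Lgals9, a galectin (169 ± 26.9 to 86.2 ± 29.1, or 51.1% of the control mean, adjusted p = 0.00656), fell, and Lgals3bp, a secreted galectin ligand (67.7 ± 5.79 to 106 ± 7.49, 0.64 ± 0.14, adjusted p = 0.00832), rose, each also without any 1 library. Ifitm3, which blocks virus entry, rose from 116 ± 12.0 to 169 ± 6.23 (0.54 ± 0.12, adjusted p = 0.0107), with an adjusted p of 0.0510 without Control replicate 3. Chosen after their values were seen, the other called genes were Ifitm2 (0.53) and Nampt (0.71), which rose, and Uba7 (-0.73), Samd9l (-0.60) and Pml (-0.59), which fell. Each of these 5 calls ended without Control replicate 3 (adjusted p of 0.0759, 0.0525, 0.0521, 0.0731 and 0.0845 in the same order) and without at least 1 other library, and those of Samd9l (0.119) and Pml (0.0574) ended with DESeq2. Over the 103 genes tested in the 4 lists, the 5 called higher became 1 when Control library 3 was omitted and 3 when Tfam cKO library 3 was omitted. The 5 called lower became 2 when Control library 1, Control library 3 or Tfam cKO library 3 was omitted, 10 without Tfam cKO replicate 2 and 3 with DESeq2.

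**Figure D3:**
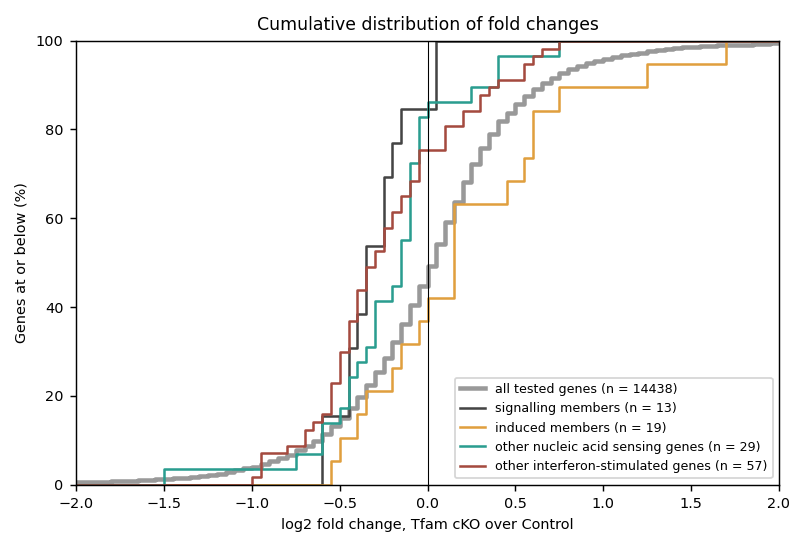
Share of genes (vertical axis, %) at or below each log2 fold change (horizontal axis, drawn in steps of 0.05) for the 13 signalling members, the 19 tested induced members, 29 other nucleic acid sensing genes, 57 other interferon-stimulated genes and all 14438 tested genes (grey). The curves of the signalling members and of both other lists lie left of the grey curve around 0, and that of the induced members does not.

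Markers of other cells moved in the same libraries, in which limma called 6.42% of all tested genes higher and 6.01% lower. At an unadjusted limma p under 0.05 the shares of all genes were 13.5% and 13.7%. Of 10 B lymphoid markers, all 10 were lower, led by the recombinase gene Rag1 (-4.19, adjusted p = 4.45e-05), and their counts summed to 675 to 958 in Control libraries and 124 to 233 in Tfam cKO libraries. Of 9 neutrophil markers tested 3 were lower (9170 to 11551 against 6134 to 9539), led by the granule gene Ngp (-0.53), whose call ended when Control library 1 or 2 or Tfam cKO library 1 or 3 was omitted (adjusted p from 0.0535 to 0.152). Of 4 erythroid markers tested 2 were lower (4539 to 6674 against 2924 to 4906), led by Klf1 (-0.88), with Hba-a1 and Hba-a2 at 0. Of 9 macrophage markers tested 4 were higher and 1 lower (1174 to 1310 against 1433 to 1674), led by the complement gene C1qb (0.87). Of 7 markers listed for plasmacytoid dendritic cells, which make much interferon, 5 were tested and 2 were lower (226 to 300 against 92.1 to 124), Spib (-2.84) and Ly6d (-1.92), genes that B cells also use, while their lectin Siglech was not called (4.60 ± 2.14 against 5.15 ± 2.23) and Klk1 was at 0. Of 6 T and NK cell markers tested (46.2 to 55.3 against 33.5 to 59.3) 0 were called by limma, and 1 was lower at an unadjusted p under 0.05, the smallest p being that of Nkg7 (-0.93, adjusted p = 0.183, and 0.0243 without Tfam cKO replicate 2). Of 10 chondrocyte markers 5 were higher (518 to 713 against 1297 to 2752), led by Col10a1 (3.84), of hypertrophic cartilage. Osteoblast markers, which check the labelled tissue, were all measured, with a list median of 0.23 and 7 of 10 genes above 0. Called higher were 3, Ibsp (1.30), Alpl (0.78) and Spp1 (0.67). Called lower were 3, Bglap (-1.68), an osteoblast protein, Col1a2 (-1.18) and Col1a1 (-1.09). Their sums (154547 to 189838 against 89518 to 103197) were mostly collagen. Col1a1 had a mean of 80953 in Control and 37653 in Tfam cKO, and Col1a2 had 80784 and 35637. Of 10 endothelial markers 1 was higher, Emcn (0.70), with a list median of 0.07, 4 genes below 0 and overlapping sums (1314 to 1428 against 1394 to 1588). The Emcn call ended when Control library 3 (0.0507) or Tfam cKO library 3 (0.0622) was omitted. Skeletal muscle markers ranged from 1544 to 9450 in Control and 1669 to 13530 in Tfam cKO, with 0 called by limma, 0 at an unadjusted p under 0.05, and Myh8 having the smallest p (adjusted p = 0.393). The part of these cells in the values of the interferon and sensing genes was not tested.

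**Figure D4:**
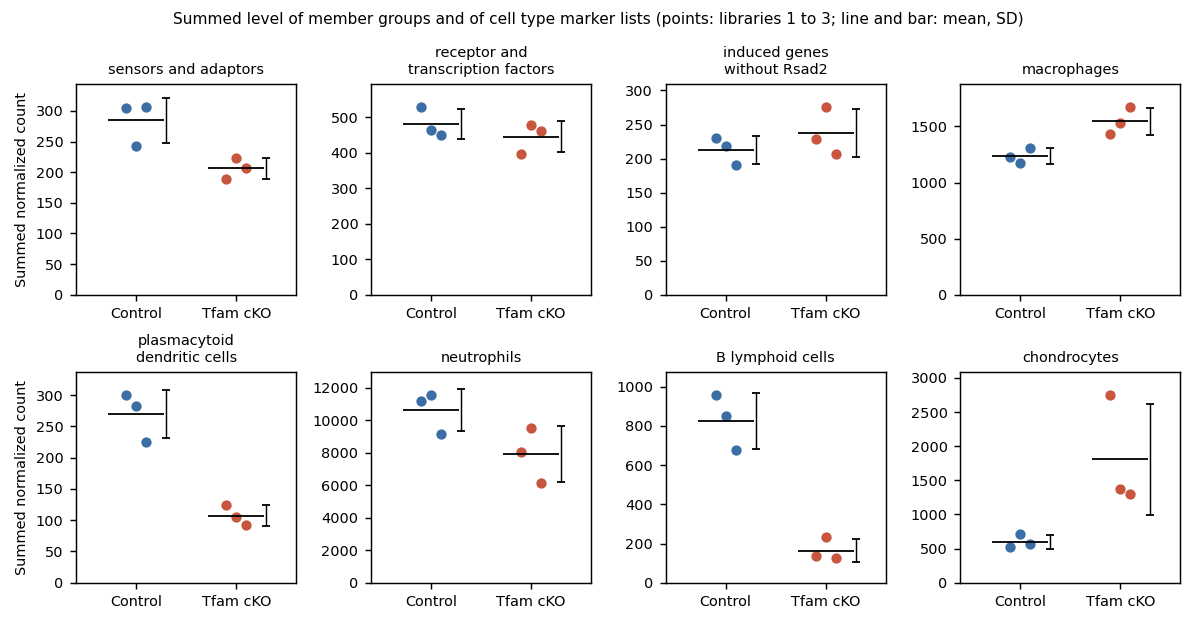
Summed normalized counts (vertical axes from 0) of 3 groups of the members and of 5 cell type marker lists in each library, with the mean and SD of the 3 libraries per group. The sums of sensors and adaptors were lower in all 3 Tfam cKO libraries, as were those of the B lymphoid markers. Mavs and Tbk1 held a large part of the sensor and adaptor sums. Those of the induced genes without Rsad2 overlapped, and the macrophage and chondrocyte sums were higher. Within the macrophage list Mrc1 was called lower by limma (-0.48). Of the chondrocyte sums (means of 598 in Control and 1806 in Tfam cKO), Col10a1 alone held 70.4 and 926.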

How the data were processed

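Poly(A)-selected directional libraries were made from total RNA of flushed humeri, per the labels' protocols. Per the submitters' processing notes, TopHat, Cufflinks and the mm10 build were used; versions, roles, the counting program, its strand setting and how size factors were set are not stated in the labels. The authors deposited a single table, per the file headers, with exon blocks, a value per library and a q-value. The values are a signal the authors made from read counts divided by 1 size factor per library: in each library 100% were whole numbers of reads to within 0.001 of a read. The value of 1 read was 1.0045 normalized counts in Control replicate 1 and 0.9947 in Control replicate 3, so there reads and normalized counts nearly coincide.

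limma 3.58.1 (R 4.3.3) was fitted to log2(normalized count + 1) over all 6 libraries, for genes with a mean of at least 1, with a single genotype term and the variance trended on mean level. Benjamini-Hochberg adjustment ran over all 14438 genes. Fold changes on this scale understate those of genes with few reads. edgeR 4.0.16 and DESeq2 1.42.0 were run on the recovered reads, and the scripts were tested on simulated data. Other alternatives were pseudocounts of 0.1 and 5, no filter or a mean of at least 5, quantile and median-of-ratios scaling, a replicate block, a robust fit, removal of each library's trend with exon length, and leaving out each library. Members and lists were chosen with earlier results of these data known. Values in every library are given for the 10 members with the smallest p, the sensors and adaptors, Irf3, Irf7, Stat2, Isg15, Ifit1, Ifit3 and the highest and lowest member per kilobase. Rsad2 was added after its values were seen. Of other lists the 3 genes (cell markers: 1) with the smallest p are named, and further cell markers were named after their values were seen. No member shares exon bases with another gene of the table. The value per kilobase is the mean normalized count divided by exon length. Libraries of the same group differed by more than sampling noise. Values of some genes of the other lists are not reported here.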

Additional observations from a re-analysis of the deposited data

How the results depend on the processing

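Across the 18 fits (the main one and 17 alternatives), the 31 tested members other than Mavs were called in 0, and Mavs kept its direction in all. The count of members called lower, 1, was 0 with the replicate block and with DESeq2 and 0 to 1 with 1 library left out. Deviations of same-numbered libraries from their group means correlated at -0.23, 0.01 and 0.09, and not every library correlated best with its own number. With 3 libraries per group, these values cannot settle whether the replicate numbers pair the samples. With the replicate block the calls of Mavs (adjusted p = 0.0543), Samhd1 (0.0787) and Pml (0.0666) ended, and 687 genes were higher and 603 lower in the table. Over all genes, 927 higher and 868 lower became 604 and 536 with DESeq2, and ranged from 545 to 836 and from 348 to 982 with 1 library left out. Other pathway genes called lower were 3 with DESeq2, and with 1 library left out the higher ranged from 1 to 4 and the lower from 2 to 10. Cell type markers called, 13 higher and 21 lower, ranged from 9 to 13 and from 14 to 25 with 1 library left out. Tfam was at -0.80 with DESeq2 (adjusted p = 0.0564) and -0.94 to -0.57 with 1 library left out. The median of the members ranged from -0.31 to -0.0060 with 1 library left out. Uncalled members whose sign changed were Ifit3 with edgeR (0.27) and DESeq2 (0.23), and, with 1 library left out, Mb21d1 (-0.68 to 0.0058), Ddx58 (-0.34 to 0.013), Ifnar1 (-0.039 to 0.083), Ifnar2 (-0.10 to 0.11), Irf3 (-0.37 to 0.0069), Oas2 (-0.28 to 0.26), Oasl1 (-0.16 to 0.38), Oasl2 (-0.025 to 0.25), Ifit1 (-0.61 to 0.037), Ifit3 (-0.88 to 0.35), Rsad2 (-0.26 to 0.19), Xaf1 (-0.017 to 0.36) and Mx1 (-0.31 to 0.49). Fits without 1 library have fewer samples by construction, and the cause of the other changes was not tested. Members with fewer than 20 normalized counts rest on few reads, and the spread between libraries also limits how closely each member was read.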
